A study of Mus musculus with 9 samples.

Results

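Oxidative phosphorylation is carried out by 5 protein complexes of the inner mitochondrial membrane, and the transcripts described here encode their nuclear-encoded subunits, cytochrome c and a set of complex I assembly factors. Members were the mRNA-type rows whose symbol begins with Nduf, Uqcr, Atp5 or Cox4 to Cox8, together with Sdha, Sdhb, Sdhc, Sdhd, Cyc1 and Cycs. The rule took 96 of the 18984 genes in the files, and 1 further row that it caught, the pseudogene Ndufa11b, was left out because it is not of mRNA type. The 96 comprised 7 core subunits, 32 accessory subunits and 8 assembly factors of complex I, 4 subunits of complex II, 9 of complex III, cytochrome c itself, 18 of complex IV and 17 of complex V. A total of 94 passed the filter of at least 1 FPKM in at least 3 of 9 libraries. The other two, Cox7b2 and Cox8c, stood at or below 0.22 FPKM in every library. FPKM values are fragment numbers scaled to the length of the transcript and to the total of the library.

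The study measured poly(A) RNA of whole lung from C57BL/6 mice, taken 24 hours after inoculation through the trachea. The 3 groups received normal saline (control), conidia of Aspergillus fumigatus, which are its inhaled spores, or hyphal fragments of the fungus, which are its filamentous form. Each group had 3 libraries, and the labels list no other treatment or allele. The labels leave unsaid if each library is a different animal. The p-values then measure only how far these samples spread, and that spread may be technical.

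Complexes I and II pass electrons from NADH and succinate to ubiquinone, complex III passes them on to cytochrome c, and complex IV hands them to oxygen. Complexes I, III and IV pump protons across the membrane, and complex V uses the resulting gradient to make ATP. Complexes I, III, IV and V are mosaics of nuclear-encoded and mitochondrially encoded subunits, complex II is wholly nuclear-encoded, and assembly factors help to build them without remaining in the finished enzyme. In lung, type 2 cells and ciliated cells are rich in mitochondria, while neutrophils have few and rely largely on glycolysis. The mitochondrially encoded subunits were not analysed here.

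Nuclear genes of the respiratory chain are textbook targets of the transcription factors NRF1, GABPA, YY1 and ERR alpha. RefSeq start-site windows (GRCm38.p6, 250 bases before to 50 after each start, 300 in all) were at hand for 77 of the 96 members. The NRF1 core CGCATGCG, which reads the same on both strands, stood in windows of 12 of these 77 (15.6%), against 3.96% of the 10922 genes tested that had a window and 2.07% of all genes with one. The YY1 letters AAGATGGCG were found in 8 of 77 (10.4% against 3.27% of genes tested), the ERR letters TCAAGGTCA in 2 (2.60% against 0.339%) and the ETS letters CCGGAAGT of GABPA in 5 (6.49% against 8.41%), each sought on both strands. The first 4 stretches below are upstream stretches with the NRF1 core in capitals. They are shown because they come from 4 different parts of the system: cytochrome c, complex IV, complex V and a complex I assembly factor. The last 2 are the 60 bases before the start of the genes with the highest difference (Uqcrfs1, rescaled) and the lowest difference (Ndufaf7, as deposited) between hyphae and control, and their windows hold none of the 4 letter strings. A match is only a description of the letters.
Cycs (chr6:50566597-50566656, minus strand): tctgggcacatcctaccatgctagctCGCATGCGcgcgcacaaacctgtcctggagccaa
Cox6a1 (chr5:115349086-115349145, minus strand): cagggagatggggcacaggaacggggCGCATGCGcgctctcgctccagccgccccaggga
Atp5g2 (chr15:102671055-102671114, minus strand): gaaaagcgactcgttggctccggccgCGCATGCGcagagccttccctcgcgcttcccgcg
Ndufaf4 (chr4:24897945-24898004, plus strand): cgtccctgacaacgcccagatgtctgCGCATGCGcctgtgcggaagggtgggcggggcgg
Uqcrfs1 (chr13:30545317-30545376, minus strand): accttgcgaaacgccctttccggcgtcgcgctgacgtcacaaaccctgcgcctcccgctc
Ndufaf7 (chr17:78937075-78937134, plus strand): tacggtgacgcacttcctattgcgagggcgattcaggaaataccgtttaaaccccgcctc

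The files hold no counts, and FPKM added up over all genes came to 492540 to 561250 in a library. Between hyphae and control the median of all 13761 genes tested was lower by 0.37 on the log2(FPKM + 1) scale, so each comparison is given both as deposited and after rescaling with median-of-ratios factors, which set the median gene near 0. Control replicate 1 and hyphae replicate 3 stood apart: the 8 cardiac muscle markers summed to 1592 and 2329 FPKM there and to 117 to 545 FPKM in the other 7 libraries. Results that rest on them are given with and without these 2. Neutrophil markers (10 genes, 1 of them at 0 in 1 control library) summed to 243 to 349 FPKM in controls, 2020 to 12571 after conidia and 1398 to 8209 after hyphae. Club cell markers (4 genes) summed to 68208 to 124253, 46532 to 63732 and 31878 to 40570 FPKM in the same order, and ciliated cell markers (5 genes) to 617 to 839, 276 to 549 and 284 to 429 FPKM. Alveolar type 2 cell markers (5 genes) summed to 19717.3 to 28475.6 FPKM in controls, 14011.4 to 24820.5 after conidia and 25424.5 to 29567.3 after hyphae. Both fungal groups overlapped the controls in this type 2 sum. The part of these shifts in the results below was not tested, and in whole lung fewer cells of a type and less RNA per cell cannot be told apart.

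Transcripts of the system were abundant in control lung. Mean control FPKM of the 94 tested members ran from 5.01 to 339, with a median of 71.5 against 11.3 for all genes tested. Complex V (median 126 FPKM) and complex IV (101 FPKM) stood highest, complex III (73.2), complex II (65.1) and the complex I subunits (63.4) lay between, and the complex I assembly factors stood lowest at 8.02 FPKM. The highest member was Cox8a, a small complex IV subunit, at 339 ± 43 FPKM (SD, n = 3), followed by Atp5b, the catalytic beta subunit of ATP synthase, at 308 ± 56 and Cox6a1 at 302 ± 36, which do not differ beyond their spread. All 96 together made up 1.30 to 1.86% of summed FPKM. They summed to 10447, 8198 and 8438 FPKM in control libraries, 7411, 8475 and 8351 after conidia, and 7582, 6383 and 8696 after hyphae. The groups overlapped in this sum.

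As deposited, most members ranked the libraries of 1 group alike. The share of all genes with the same order was not counted. Control replicate 1 was the highest control for 89 of the 94, hyphae replicate 3 was the highest of its group for 77, and hyphae replicate 2 was the lowest for 88. Conidia replicate 1 was the lowest of its group for 77. Relative to each gene's control mean, the median over members was 0.22, −0.11 and −0.10 in the 3 controls, −0.27, −0.10 and −0.13 after conidia, and −0.29, −0.55 and −0.10 after hyphae, on the deposited log2 scale. Over all genes tested it was 0.01, 0.01 and −0.02 in controls, −0.15, −0.01 and −0.06 after conidia, and −0.30, −0.40 and −0.40 after hyphae. Rescaled, the members' medians were 0.20, −0.11 and −0.08 in controls, −0.11, −0.10 and −0.06 after conidia, and 0.02, −0.10 and 0.36 after hyphae. The 2 libraries rich in cardiac muscle markers were thus the highest of their groups for most members.

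**Figure D1:**
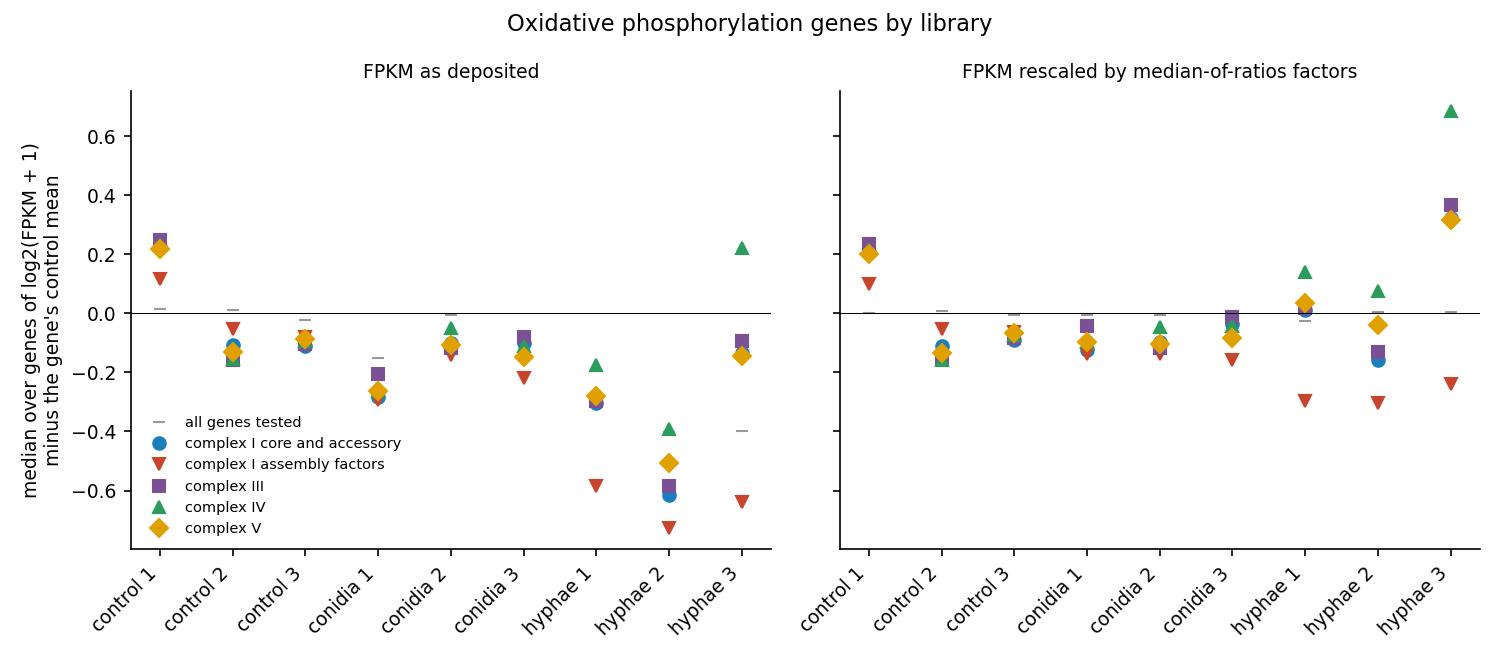
Median over the genes of each group of log2(FPKM + 1) minus the gene's control mean, for each of the 9 libraries (x axis), as deposited (left) and rescaled (right). Complex I assembly factors (downward triangles) are the lowest group in all 3 hyphae libraries on both scales, at −0.58, −0.73 and −0.64 as deposited, and complex IV (upward triangles) is the highest of the 5 groups of members there.

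After hyphae, 33 of the 94 members were lower than in control and none was higher on the deposited scale, against 50% of all genes tested called lower and 14.9% called higher. The members' median difference was −0.33, close to that of all genes (−0.37). Rescaled, 11 were higher and 6 lower, with a median of 0.08, against 29.5% of all genes higher and 30% lower. Both shares of members were below the background on that scale. With control replicate 1 and hyphae replicate 3 left out, 1 was higher (Uqcrfs1) and 30 lower as deposited, and 10 were higher and 7 lower rescaled. The shares over all genes in that setting were 11.6% higher and 40.3% lower as deposited, and 23.3% and 22.4% rescaled. All 3 hyphae libraries lay below all 3 controls for 37 of the 94 members (39.4%) and above them for none, against 53.4% and 17.3% of all genes tested.

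By complex the counts ran in different directions once rescaled, and the difference between complexes was not tested. Complex I assembly factors were lower for 8 of 8 members as deposited (median −0.60) and for 4 of 8 rescaled (median −0.22). Complex IV was lower for 1 of 16 tested subunits as deposited (median −0.15), and rescaled it was higher for 7 of 16 (median 0.27). Over all genes tested, 50% were lower as deposited, and 29.5% were higher and 30% lower rescaled. Complex I core and accessory subunits, with 15 of 39 lower as deposited (median −0.33), had 1 higher and 1 lower rescaled. Complex V had 5 of 17 lower as deposited and 1 of 17 rescaled, the same gene, Atp5s, being called on both scales. Complex II was split between its own subunits, with 2 of 4 lower as deposited and 2 of 4 higher rescaled. In complex III 2 of 9 were lower as deposited, and rescaled only Uqcrfs1 was called, higher.

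**Figure D2:**
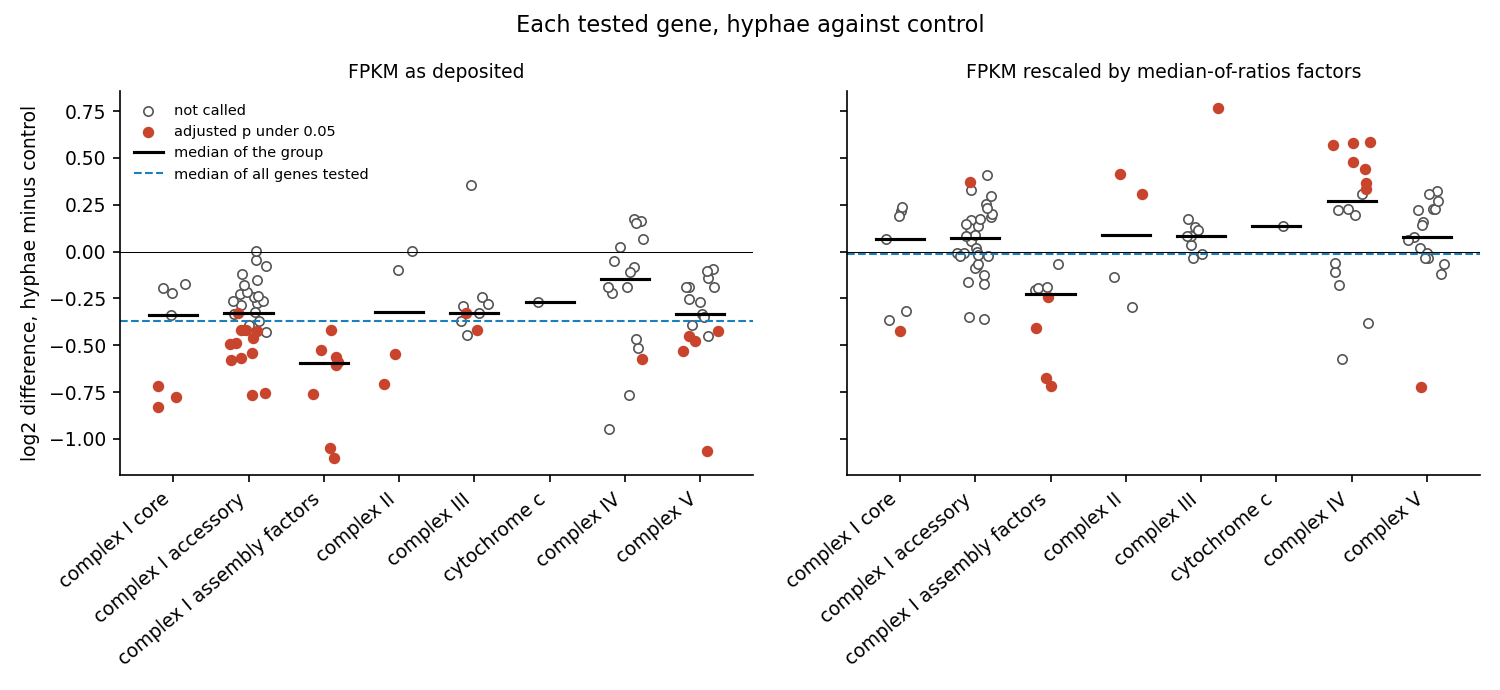
Log2 difference between hyphae and control for each of the 94 tested members (1 point each), by complex, as deposited (left) and rescaled (right). Red points have an adjusted p under 0.05, black bars are group medians and the dashed line is the median of all genes tested (−0.37 and −0.01); all 8 assembly factors are red on the left, and 7 complex IV points are red above 0 on the right.

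The assembly factors of complex I act at successive steps. Ndufaf3 (Entrez 66706) and Ndufaf4 act together early, on the quinone-binding module. Ndufaf3 stood at 16.8, 16.1 and 14.3 FPKM in controls, 12.7, 14.4 and 13.1 after conidia and 9.17, 5.81 and 6.61 after hyphae. It fell by 1.05 on the log2 scale after hyphae (SE 0.15, adjusted p = 0.00035) and by 0.67 rescaled (adjusted p = 0.0014). Ndufaf4 stood at 6.63, 6.40 and 6.18 FPKM in controls and 5.23, 3.76 and 4.74 after hyphae, a difference of −0.42 as deposited (adjusted p = 0.013) and −0.07 rescaled (adjusted p = 0.65).

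Ndufaf7 (Entrez 73694), a methyltransferase that acts in complex I assembly, had the largest fall of all members as deposited. It stood at 23.1, 17.6 and 18.03 FPKM in controls, 15.6, 16.2 and 15.8 after conidia and 11.02, 7.10 and 7.91 after hyphae, so that the hyphae libraries lay below every other library. The difference from control was −1.10 (SE 0.16, adjusted p = 0.00038) and −0.72 rescaled (adjusted p = 0.0019).

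Ndufaf1, a scaffold for the membrane arm, stood at 8.99, 6.74 and 7.27 FPKM in controls and 4.82, 3.39 and 4.15 after hyphae, and differed by −0.76 (adjusted p = 0.0019) and −0.41 rescaled (adjusted p = 0.026). Ndufaf2, a late-acting chaperone, differed by −0.60 (adjusted p = 0.0014) and −0.24 rescaled (adjusted p = 0.039). Ndufaf5, which hydroxylates Ndufs7, and its partner Ndufaf8 were lower only as deposited, by 0.56 and 0.59 on the log2 scale (adjusted p = 0.0071 and 0.011). For all 8 factors the 3 hyphae libraries lay below the 3 controls, as they did for 53.4% of all genes tested. When the 2 libraries rich in cardiac muscle markers were left out, 6 of 8 were lower as deposited and 2 of 8 rescaled, Ndufaf3 and Ndufaf7.

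**Figure D3:**
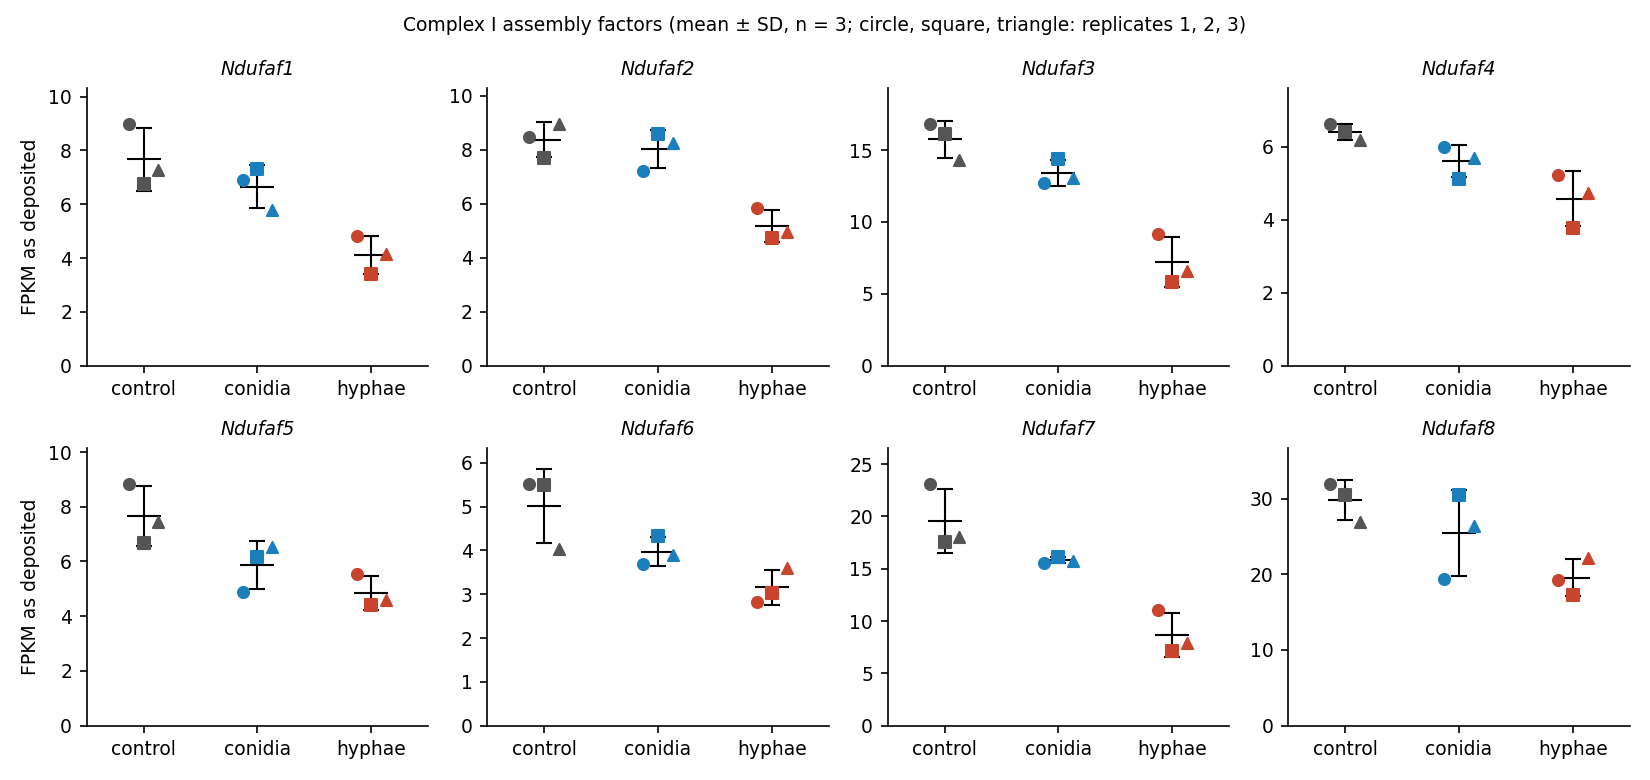
FPKM as deposited of the 8 complex I assembly factors in each library, with mean ± SD (n = 3) per group. In every panel the 3 hyphae libraries lie below the 3 control libraries; Ndufaf7 goes from 19.6 ± 3.1 FPKM in control to 8.68 ± 2.1 after hyphae.

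Assembly factors that the symbol rule leaves out were mostly lower as well. Of 40 such genes 39 were tested. Their median control level was 10.8 FPKM. After hyphae 34 of 39 were lower and none higher as deposited (median −0.73), against 50% and 14.9% of all genes tested. Rescaled, 22 of 39 were lower and none higher (median −0.38), against 30% and 29.5%. The largest falls were in Tmem126b, part of the membrane-arm assembly complex of complex I, from 10.6 ± 1.4 to 2.05 ± 0.88 FPKM (−1.95 as deposited, adjusted p = 8.9e-05), and in Coa6, a copper chaperone of complex IV, from 12.2 ± 0.70 to 2.98 ± 0.074 FPKM (−1.73, adjusted p = 2.4e-05). These 2 were picked for their size after their values were seen. Leaving out the 2 libraries rich in cardiac muscle markers, 29 of 39 were lower as deposited and 20 of 39 rescaled, against 40.3% and 22.4% of all genes. With all libraries, 55.8% of all genes at 3 to 30 FPKM in control were lower as deposited and 35.0% rescaled. The part of level in these counts was not tested. After conidia none of the 39 was called in either direction.

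Ratios taken within a library do not depend on the scaling between libraries. They were chosen after the members' values were seen and are given without a test. Summed assembly factor FPKM per 100 FPKM of complex I subunits was 3.34, 3.67 and 3.47 in controls, 3.27, 3.44 and 3.19 after conidia and 2.75, 2.62 and 2.25 after hyphae. The hyphae libraries were below all others. Summed complex IV per 100 FPKM of complex I subunits was 79.9, 77.0 and 79.3 in controls, 80.2, 80.9 and 80.5 after conidia and 89.1, 97.4 and 97.2 after hyphae, again with no overlap between hyphae and the rest. Leaving out the 3 muscle isoforms Cox6a2, Cox7a1 and Cox8b gave 74.1, 74.7 and 76.7 in controls, 78.5, 78.9 and 77.9 after conidia and 87.2, 96.2 and 90.2 after hyphae. With and without these isoforms, the conidia libraries lay above all controls and below all hyphae libraries. Complex V per 100 FPKM of complex I subunits, by contrast, was 89.2 ± 1.8 in controls and 92.3 ± 1.7 after hyphae (SD, n = 3); the hyphae libraries lay just above the controls and overlapped the conidia libraries.

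Over all genes tested the difference between hyphae and control rose with the level of a gene, and was alike for short and longer transcripts. The part of level or length in the results for members was not tested. Rescaled, the median difference between hyphae and control over all genes tested was −0.09 for genes at 3 to 30 FPKM in control, 0.18 at 30 to 100 FPKM and 0.31 at 100 to 400 FPKM. Members in the same bands had medians of −0.21 (17 genes), 0.10 (42 genes) and 0.16 (35 genes), each below that of all genes in its band. All 8 assembly factors lie in the lowest band, so their lower level and their role cannot be told apart from these counts. Complex IV had a median of 101 FPKM in control. Of all genes at 30 to 100 and at 100 to 400 FPKM, 40.5% and 48.2% were called higher rescaled. The part of level in the 7 of 16 complex IV subunits called higher was not tested. Members also have short transcripts: the median length in GENCODE M21 (GRCm38) was 704 bases for the 93 with a length, against 2134 for genes tested. All genes under 1000 bases had a rescaled median of −0.01, as had longer genes. Members under 1000 bases had a rescaled median of 0.07 (68 genes) and longer members 0.14 (25 genes). The 8 assembly factors had a median length of 1124 bases, against 680 for the other members, so they differ from these in length as well as in level.

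Complex I itself, grouped by symbol, holds 39 of the 96 members, and its 7 core subunits carry the flavin and the iron-sulfur clusters. Ndufs8 (Entrez 225887), an iron-sulfur subunit near the quinone site, was the only subunit of complex I lower on both scales with all libraries. It stood at 52.7, 50.2 and 49.8 FPKM in controls, 42.0, 54.8 and 46.3 after conidia and 32.7, 23.8 and 28.8 after hyphae. The difference from control was −0.83 (SE 0.13, adjusted p = 0.00068) and −0.42 rescaled (adjusted p = 0.0065). Ndufs7, which carries the last iron-sulfur cluster, differed by −0.78 (adjusted p = 0.0021) and −0.36 rescaled (adjusted p = 0.053). Ndufs1, which holds several clusters, stood at 27.1 ± 4.7 FPKM in control and 16.2 ± 3.3 after hyphae (−0.72, adjusted p = 0.0038; −0.32 rescaled, adjusted p = 0.11). Ndufs7 and Ndufs1 also passed rescaled once the 2 libraries rich in cardiac muscle markers were left out. The core subunits Ndufs3, Ndufv1 and Ndufv2 were not called on either scale, with differences of −0.34 to −0.17 as deposited and 0.07 to 0.24 rescaled.

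Among the 32 accessory subunits, 12 were lower as deposited and none rescaled. Ndufb3, a membrane-arm subunit, stood at 57.0, 53.4 and 44.6 FPKM in controls and 33.7, 22.9 and 34.2 after hyphae (−0.77, adjusted p = 0.0034; −0.36 rescaled, adjusted p = 0.066). Ndufc1, another subunit of the membrane arm, differed by −0.76 (adjusted p = 0.0048) and −0.35 rescaled (adjusted p = 0.093). Ndufa7, in the matrix arm, stood at 117, 94.5 and 90.2 FPKM in controls and 95.1, 90.2 and 106 after hyphae. It overlapped as deposited (−0.04, adjusted p = 0.77) and was called higher only rescaled (0.37, adjusted p = 0.030). Ndufb4c, a near copy of Ndufb4, was low and scattered (2.08 to 10.7 FPKM over the 9 libraries), and fragments may be split between the pair.

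Complex II, succinate dehydrogenase, was split within its 4 subunits. Sdha, the flavoprotein, stood at 72.6, 59.4 and 61.7 FPKM in controls, 51.4, 55.9 and 56.9 after conidia and 41.7, 32.9 and 43.3 after hyphae. All hyphae values were below all others, and the difference from control was −0.71 (SE 0.12, adjusted p = 0.0011) as deposited and −0.30 rescaled (adjusted p = 0.0504, not called; −0.32 and 0.046 without the 2 libraries rich in cardiac muscle markers). Its iron-sulfur partner Sdhb stood at 78.9, 56.1 and 62.2 FPKM in controls, 58.5, 62.3 and 60.7 after conidia and 67.9, 58.0 and 70.0 after hyphae. Sdhb overlapped between groups as deposited (0.00, adjusted p = 1.0) and was higher rescaled (0.41, adjusted p = 0.021). Within each library, Sdhb per 100 FPKM of Sdha was 109, 94.5 and 101 in controls, 114, 112 and 107 after conidia and 163, 176 and 161 after hyphae, with no overlap between hyphae and the rest.

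The 2 membrane anchors of complex II followed the same split. Sdhc stood at 112, 87.3 and 90.0 FPKM in controls and 68.5, 58.4 and 69.7 after hyphae (−0.55, adjusted p = 0.0039; −0.13 rescaled, adjusted p = 0.32). Sdhd stood at 47.3, 41.5 and 37.8 FPKM in controls and 39.3, 36.1 and 42.4 after hyphae, overlapping as deposited (−0.10, adjusted p = 0.43) and called higher rescaled (0.31, adjusted p = 0.026). Sdhd per 100 FPKM of Sdhc was 42.2, 47.5 and 42.0 in controls, 42.1, 41.1 and 39.5 after conidia and 57.3, 61.8 and 60.9 after hyphae. The hyphae libraries were again above all others.

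In complex III, Uqcrfs1 (Entrez 66694), the Rieske iron-sulfur protein that is inserted late into the complex, was the one subunit called higher on the rescaled scale. It stood at 58.0, 39.1 and 42.5 FPKM in controls, 39.4, 42.4 and 43.1 after conidia and 57.5, 54.0 and 66.3 after hyphae. The highest control, replicate 1, overlapped the hyphae libraries, and the difference of 0.36 (SE 0.15) was not called as deposited (adjusted p = 0.057) but was rescaled (0.77, adjusted p = 0.0022). Without those 2 libraries it was 0.44 as deposited (adjusted p = 0.013) and 0.82 rescaled (adjusted p = 0.0020). The core proteins Uqcrc1 and Uqcrc2 were lower as deposited, by 0.33 and 0.42 on the log2 scale (adjusted p = 0.038 and 0.025), and neither was called rescaled (0.08 and −0.01); Uqcrc1 was not called as deposited without the 2 libraries rich in cardiac muscle markers. Uqcrfs1 per 100 FPKM of Uqcrc1 was 69.3, 61.7 and 58.7 in controls, 60.3, 65.2 and 62.7 after conidia and 99.6, 104 and 103 after hyphae, with no overlap between hyphae and the rest.

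Cyc1, the cytochrome c1 subunit of complex III, stood at 71.4, 50.4 and 53.8 FPKM in controls and 46.7, 37.3 and 50.6 after hyphae (−0.37, adjusted p = 0.056). The mobile carrier Cycs stood at 39.4, 28.3 and 31.1 FPKM in controls, 33.8, 30.5 and 34.4 after conidia and 25.1, 22.1 and 35.1 after hyphae. With all libraries Cycs overlapped in all comparisons (−0.27 between hyphae and control, adjusted p = 0.21; 0.14 rescaled, adjusted p = 0.56). The overlap with conidia rests on hyphae replicate 3. With that library left out Cycs was lower as deposited against control (−0.45, adjusted p = 0.027) and against conidia (−0.46, adjusted p = 0.031). With control replicate 1 left out as well, Cycs was not called against control as deposited (−0.32). It was still called lower against conidia (−0.46) as deposited, and was called in neither comparison rescaled. Uqcrb, the most abundant complex III transcript, stood at 199 ± 24 FPKM in control and 163 ± 20 after hyphae (−0.28, adjusted p = 0.076).

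**Figure D4:**
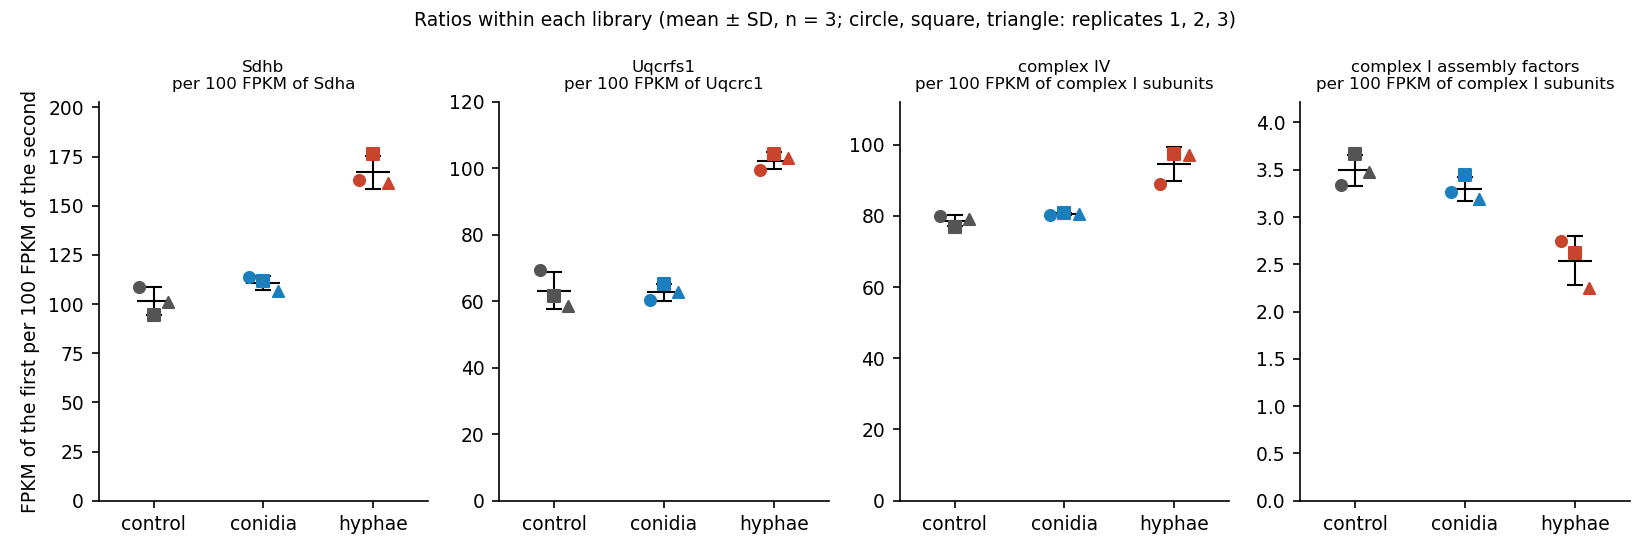
FPKM of one gene or summed group per 100 FPKM of another in the same library, with mean ± SD (n = 3) per group, for 4 pairs chosen after their values were seen. In each panel the 3 hyphae libraries lie outside the range of the 6 others, above it for Sdhb per Sdha (167 ± 8.2 against 101 ± 7.1 in control), Uqcrfs1 per Uqcrc1 and complex IV, and below it for the assembly factors.

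Complex IV, cytochrome c oxidase, holds most of the members called higher on the rescaled scale: Cox4i1, Cox4i2, Cox5b, Cox6a1, Cox7a2, Cox7a2l and Cox8a. None of these 7 was called as deposited. Cox7a2l (Entrez 20463), which joins complexes III and IV into supercomplexes and which C57BL/6 mice carry in a shortened form, had the smallest adjusted p. It stood at 119, 126 and 119 FPKM in controls, 110, 133 and 107 after conidia and 135, 125 and 146 after hyphae, overlapping by 1 library (0.15, adjusted p = 0.24; 0.57 rescaled, adjusted p = 0.0017). Cox5b, a zinc-binding subunit, stood at 122, 91.0 and 94.7 FPKM in controls and 110, 99.5 and 136 after hyphae (0.16, adjusted p = 0.34; 0.58 rescaled, adjusted p = 0.010). Cox7a2, the widely expressed liver-type isoform, differed by 0.07 as deposited (adjusted p = 0.65) and 0.48 rescaled (adjusted p = 0.0075). With the 2 libraries rich in cardiac muscle markers left out, 6 of 16 were higher rescaled, and Cox4i2 was no longer among them.

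Of the isoform pairs, Cox4i2 is the lung isoform of the regulatory subunit Cox4i1 and is known as a hypoxia-responsive gene. Cox4i2 stood at 51.5, 57.6 and 61.7 FPKM in controls, 37.6, 56.8 and 67.2 after conidia and 53.8, 67.2 and 73.5 after hyphae. Per 100 FPKM of Cox4i1 this was 17.0, 23.2 and 23.9, then 16.8, 22.8 and 26.0, then 20.9, 30.5 and 25.5, so the groups overlapped. Rescaled, Cox4i2 was higher by 0.59 (adjusted p = 0.035) and Cox4i1 by 0.33 (adjusted p = 0.042), while as deposited the differences were 0.18 and −0.08 (adjusted p = 0.47 and 0.59). Cox6b2, best known from testis, stood at 19.9, 22.9 and 21.1 FPKM in controls, 10.5, 17.8 and 12.9 after conidia and 12.0, 14.7 and 15.4 after hyphae. With all libraries it was the only complex IV subunit lower as deposited (−0.57, adjusted p = 0.016; −0.18 rescaled, adjusted p = 0.38), and the 2 testis markers found in the files summed to at most 0.29 FPKM in any library.

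The muscle isoforms Cox6a2, Cox7a1 and Cox8b were highest in a pair of libraries from different groups. Cox7a1 stood at 45.2, 12.0 and 16.4 FPKM in controls, 7.51, 13.1 and 12.9 after conidia and 7.72, 4.23 and 45.4 after hyphae. Cox8b stood at 44.1, 11.9 and 13.7 FPKM in controls, 3.09, 10.6 and 15.8 after conidia and 4.93, 3.79 and 40.8 after hyphae, and Cox6a2 at 101, 36.8 and 37.6, at 30.03, 32.4 and 39.1, and at 30.7, 15.6 and 96.2 FPKM. The same 2 libraries, control replicate 1 and hyphae replicate 3, were highest for all 3 genes and for the summed cardiac muscle markers. None of the 3 was called in any comparison on either scale with all libraries (differences between hyphae and control of −0.52 to −0.95 as deposited, with SE of 0.60 to 0.88). Without the 2 libraries, 3 of 16 complex IV subunits, Cox6b2, Cox7b and Cox7a1, were lower as deposited. Cox7a1 was then called lower after hyphae as deposited (−1.15, adjusted p = 0.026) and not rescaled (adjusted p = 0.061). The skeletal muscle markers Myh1, Myh2 and Myh4 stood at or below 0.26 FPKM, while adipose markers summed to 844 and 376 FPKM in these 2 libraries and to 8.97 to 181 FPKM elsewhere.

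**Figure D5:**
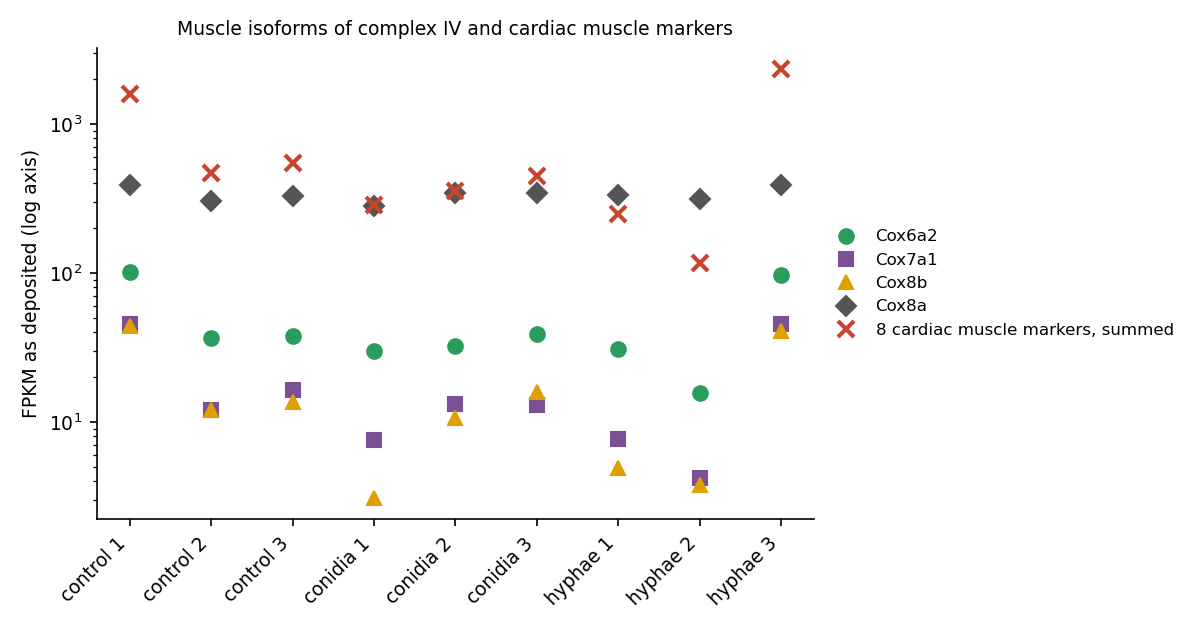
FPKM (log axis) of the muscle isoforms Cox6a2, Cox7a1 and Cox8b, of the widely expressed Cox8a and of 8 summed cardiac muscle markers in each of the 9 libraries. The muscle isoforms and the summed markers are highest in control replicate 1 and hyphae replicate 3, while Cox8a stays between 281 and 391 FPKM.

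Ndufa4, named for complex I but now assigned to complex IV, has 2 related genes in the files. Grouping was by symbol, so Ndufa4 and Ndufa4l2 were counted with complex I in the counts, medians, sums and ratios by complex. Ndufa4 stood at 288, 202 and 233 FPKM in controls, 197, 238 and 241 after conidia and 214, 154 and 233 after hyphae, with overlap throughout (−0.27 between hyphae and control, adjusted p = 0.22). Ndufa4l2, a hypoxia-inducible relative, lay between 24.6 and 41.7 FPKM in all 9 libraries and was not called (−0.08, adjusted p = 0.72; 0.33 rescaled, adjusted p = 0.15). AA467197, the third relative, lies outside the symbol rule and is the mouse counterpart of the NF-kB-responsive gene NMES1. It stood at 3.16, 2.88 and 4.29 FPKM in controls, 92.3, 21.9 and 30.8 after conidia and 5.94, 20.2 and 35.6 after hyphae. Every library from fungus-treated lung was above every control. The difference was 1.99 after hyphae (SE 0.64, adjusted p = 0.022; 2.35 rescaled, adjusted p = 0.017; not called without the 2 libraries rich in cardiac muscle markers, adjusted p = 0.14 and 0.11) and 3.21 after conidia, which did not pass the threshold (SE 0.64, adjusted p = 0.060). Per 100 FPKM of Ndufa4 it went from 1.10 to 1.84 in controls to 9.18 to 46.9 after conidia and 2.78 to 15.3 after hyphae.

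In complex V, the ATP synthase, 12 of 17 subunits were called on neither scale. Atp5b, the catalytic beta subunit, stood at 369, 258 and 296 FPKM in controls, 277, 282 and 266 after conidia and 259, 214 and 298 after hyphae (−0.26, adjusted p = 0.18; 0.16 rescaled, adjusted p = 0.41). The 3 genes for the c subunit of the membrane rotor encode the same mature protein: Atp5g2 was lower as deposited (−0.42, adjusted p = 0.0097; −0.01 rescaled), though not without the 2 libraries rich in cardiac muscle markers (−0.32, adjusted p = 0.089), while Atp5g1 and Atp5g3 were not called (−0.09 and −0.14). Atp5h, a stalk subunit, differed by −0.45 (adjusted p = 0.011) and −0.04 rescaled, and Atp5mpl, a small membrane proteolipid, by −0.48 (adjusted p = 0.047) and −0.07 rescaled.

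Atp5s, coupling factor B, which is not one of the canonical subunits, was the complex V gene with the largest fall. It stood at 8.31, 7.95 and 6.26 FPKM in controls, 3.99, 6.15 and 5.29 after conidia and 3.57, 2.41 and 3.26 after hyphae. The hyphae libraries were below all others and the conidia libraries below all controls. The difference between hyphae and control was −1.06 (SE 0.17, adjusted p = 0.00077) and −0.73 rescaled (adjusted p = 0.0028), and that between conidia and control was −0.48 (adjusted p = 0.17).

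After conidia, no member was called in either direction by limma on either scale, against 0.596% of all genes tested called higher and 0.0945% called lower as deposited, and 0.298% and 0.0436% rescaled. At an unadjusted p under 0.05 there were 4 members, Ndufc2, Ndufaf5, Cox6b2 and Atp5s, each with all 3 conidia libraries below all controls, and 2 rescaled. These are 4.26% and 2.13% of members, against 21.1% of all genes tested on either scale. The members' median was −0.17 as deposited, with 87 of 94 below 0, and −0.10 rescaled, while that of all genes was −0.07. Leaving out control replicate 1 and hyphae replicate 3, the median was −0.07 as deposited, and leaving out control replicate 1 alone gave the same value. The 3 conidia libraries lay below all controls for 16 members (17%) and above them for none, against 17.8% and 12% of all genes tested. The ratios within libraries described above overlapped or lay close to control after conidia: Sdhb per 100 FPKM of Sdha was 111 ± 3.7 against 101 ± 7.1, and Uqcrfs1 per 100 FPKM of Uqcrc1 62.7 ± 2.5 against 63.2 ± 5.5 (SD, n = 3).

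Set directly against each other, hyphae and conidia differed in 16 members as deposited. Uqcrfs1 was the 1 member higher after hyphae (0.49, SE 0.15, adjusted p = 0.019; 0.83 rescaled, adjusted p = 0.0020), and its 3 hyphae libraries lay above the 3 conidia libraries. It was not called when conidia replicate 1 (adjusted p = 0.052) or hyphae replicate 3 (adjusted p = 0.065) was left out. The 15 lower members included 7 complex I subunits, the assembly factors Ndufaf1, Ndufaf2, Ndufaf3 and Ndufaf7, and Sdha, Sdhc, Atp5f1 and Atp5s. Over all genes tested 12.7% were called higher and 42.5% lower. Rescaled, 11 members were higher and 4 lower (Ndufs8, Ndufaf2, Ndufaf3 and Ndufaf7), against 25.8% and 25.2% of all genes. Complex IV accounted for 6 of the 11, and Ndufs8 was lower by 0.73 on the log2 scale as deposited (adjusted p = 0.0018) and by 0.40 rescaled (adjusted p = 0.010). Without the 2 libraries rich in cardiac muscle markers, 1 member was higher (1.06%) and 24 lower (25.5%) as deposited. The shares over all genes in that setting were 10.5% and 35.6%. Rescaled, 7 members were higher (7.45%) and 3 lower (3.19%), against 21.8% and 20.9% of all genes. All 4 shares of members were thus below those of all genes. This comparison shares its hyphae libraries with the one against control, so the 2 are not independent.

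Other mitochondrial gene groups give the setting for hyphae against control. Of 17 genes of the tricarboxylic acid cycle and pyruvate dehydrogenase, 8 were lower and 1, Dlst, was higher as deposited, and 1 was lower and 1 higher rescaled (medians −0.38 and 0.02). Dlst, the E2 subunit of the 2-oxoglutarate dehydrogenase complex, stood at 57.4 ± 6.5 FPKM in control and 69.5 ± 3.7 after hyphae (0.28, adjusted p = 0.035), and Idh2, the NADP-dependent isocitrate dehydrogenase, at 88.9 ± 13 and 45.2 ± 12 FPKM (−0.98, adjusted p = 0.0019). Mitochondrial ribosomal proteins were lower for 59 of 78 and higher for 1 as deposited, and 32 lower and 12 higher rescaled (medians −0.57 and −0.22). Cytosolic ribosomal proteins were lower for 3 of 83 and higher for 2 as deposited, and rescaled 72 were higher and 1 lower (medians −0.02 and 0.40). The members (medians −0.33 and 0.08) lay between these 2 sets of ribosomal genes. In control the mitochondrial set summed to a mean of 2101 FPKM over 78 genes and the cytosolic set to 39266 FPKM over 87 genes. The part of level in this order was not tested.

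Among 12 tested regulators of mitochondrial biogenesis, 5 were lower and none higher as deposited, and 4 lower and 7 higher rescaled. These counts, those of the tricarboxylic acid cycle and those of both ribosomal sets stand against 50% lower and 14.9% higher of all genes as deposited. Rescaled, the shares of all genes were 30% and 29.5%. Polrmt, the mitochondrial RNA polymerase, fell from 6.34 ± 0.21 FPKM in control to 1.66 ± 0.35 after hyphae (−1.47, SE 0.12, adjusted p = 3.7e-05; −1.17 rescaled, adjusted p = 5.3e-05). Tfb1m, which methylates mitochondrial ribosomal RNA, stood at 4.63 ± 0.21 and 1.14 ± 0.62 FPKM (−1.43, adjusted p = 0.00032). Esrra, which encodes ERR alpha, stood at 16.6 ± 3.2 and 8.30 ± 1.3 FPKM (−0.91, adjusted p = 0.00096). Nrf1, Gabpa, Yy1 and Tfam, whose products bind promoters of nuclear chain genes or mitochondrial DNA, were not called as deposited (−0.10 to 0.21) and were higher rescaled (0.28 to 0.60). Without the 2 libraries rich in cardiac muscle markers, 2 of the 12 regulators were higher and 3 lower rescaled, and Nrf1 and Tfam were no longer called (adjusted p = 0.11 and 0.13).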

How the data were processed

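The authors deposited 1 file per library with FPKM values per gene, per the file headers. The submitters' processing notes name HISAT, Bowtie2 and mm9 with neither role nor version. The program behind the FPKM values and the annotation were not given in the sources used here. Depth in fragments is therefore unknown, and low values are the least precise. From these values, log2(FPKM + 1) was fitted in R 4.3.3 with limma 3.58.1 (trend, robust empirical Bayes) over all 9 libraries with 1 term per group. A gene entered the test if it reached 1 FPKM in 3 or more libraries (13761 of 18984). Tests were two-sided with Benjamini-Hochberg adjustment over all these genes, with calls at an adjusted p under 0.05. The pseudocount of 1 understates changes of low genes. The fit was checked on simulated data. Rescaled values were divided by median-of-ratios factors over genes tested. No 2 libraries held identical values. The members and lists were chosen with earlier results of these data known. Genes were named by a fixed rule (isoform families, complex II, both cytochromes, the highest and the up to 3 most changed members of each complex, and those called against the direction of their complex), plus genes of the fixed lists. The further members named (Ndufs1, Ndufs3, Ndufv1, Ndufv2, Ndufa7, Ndufc1, Ndufaf2, Ndufaf4, Ndufaf5, Uqcrc1, Cox5b and those listed as called) were chosen after their values were seen. Fragments of members with processed pseudogenes or near copies may be split. Coordinates are those of RefSeq on GRCm38.p6, not of the build of the files. Python 3.11.15, pandas 2.3.3 and matplotlib 3.10.9 were used for motifs, ratios and figures. Alternatives were other scalings, pseudocount 0.1, no filter, ordinary empirical Bayes, only 6 libraries, a replicate block, and each library left out.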

Additional observations from a re-analysis of the deposited data

How the results depend on the processing

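The scaling between libraries decided the counts for hyphae, and the cause of the shift of the median gene was not tested. Against control, scaling to the same 75th percentile gave 2 higher, 16 lower and a median of −0.14, between the 0 and 33 (−0.33) as deposited and the 11 and 6 (0.080) with median-of-ratios factors. Against conidia it gave 3, 6 and 0.045, and median-of-ratios factors gave 11, 4 and 0.20. Leaving out 1 library gave 0 to 1 higher and 22 to 50 lower members for hyphae against control (22 without hyphae replicate 2, 50 without hyphae replicate 3), with medians of −0.43 to −0.19. It gave 0 to 2 higher and 6 to 21 lower for hyphae against conidia (8 without conidia replicate 2, 6 without conidia replicate 3 or hyphae replicate 2), with medians of −0.27 to −0.02, and 0 to 1 lower for conidia against control (1, Cox6b2, without conidia replicate 2), with medians of −0.23 to −0.07. Groups left with 2 libraries were assumed to vary like the others. Leaving out the 2 libraries rich in cardiac muscle markers was an alternative chosen after seeing the data. Hyphae against control then had 1 higher and 30 lower as deposited, and 10 higher, 7 lower and a median of 0.065 rescaled. Hyphae against conidia had 1 higher and 24 lower as deposited, and 7, 3 and 0.046 rescaled. The shares over all genes in this setting are given above. Between hyphae and control, 8 of the 94 differences were above 0 as deposited and 54 with median-of-ratios factors. Those that turned from negative to positive included Cox4i1 (0.33), Cox6a1 (0.37) and Sdhd (0.31). With those factors and without the 2 libraries they included Cox4i1 (0.30), Cox6a1 (0.41), Sdhd (0.30), Atp5g2 (0.065) and Uqcrc2 (0.021). Pseudocount, filter, moderation and the 6-library fit kept all counts within 1.5 times. The replicate numbers did not pair the libraries (correlations of deviations −0.31 to 0.42), and the replicate block gave 29 lower members for hyphae against control and 14 lower and 1 higher for hyphae against conidia.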
